A study of Mus musculus with 6 samples.

Results

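Genes that start or restrain plasminogen activation and blood coagulation at the vessel wall were followed in endothelial cells recovered from Matrigel plugs with and without recombinant microfibrillar-associated protein 5 (MFAP5). The gene set named 9 members, and a member was measured where the array's annotation gave a probe set exactly 1 gene symbol equal to it. This left 8 genes with 13 probe sets, of 18193 genes and 45037 probe sets in all: the plasminogen activators Plat and Plau, the receptor Plaur, the inhibitor Serpinb2, the coagulation trigger F3, its inhibitor Tfpi, and the protein C pathway receptors Thbd and Procr. Serpine2 is not analysed here. Matrigel, a gel of basement membrane proteins, was implanted intraperitoneally in Balb/c nude mice, a strain with few T cells. Control plugs carried no added MFAP5, a secreted glycoprotein of elastic microfibrils, and treated plugs contained the recombinant protein. There were 3 control and 3 MFAP5 samples, with 1 array (Affymetrix Mouse Genome 430 2.0) per sample. The sources used here do not give the age of the mice, the time in the animal or the method by which endothelial cells were purified. The samples are described as independent, without a statement that each came from its own animal, so p-values measure the spread between these samples.

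Plasminogen is a circulating precursor that tissue-type plasminogen activator (Plat) and urokinase (Plau) cleave into plasmin, which dissolves fibrin and helps cells move through matrix. Urokinase acts at the cell surface on its receptor Plaur, and serpins such as Serpinb2 block the activators. Endothelial cells release tissue-type activator into blood. Coagulation starts when tissue factor (F3) binds factor VII, a step that Tfpi stops, while thrombomodulin (Thbd) and the endothelial protein C receptor (Procr) on resting endothelium turn thrombin towards activation of protein C, an anticoagulant.

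The values were relative log2 signals, centred for each probe set on its median over the 6 arrays, which keeps differences between arrays and removes levels. A base of 2 was assumed for the log, and higher values were taken as more signal. Control replicate 1 stood apart, correlating at -0.028 with control replicate 2 over probe sets (a description, as probe sets are not replicates). Its bacterial spike-in signal was -0.32, where the other control arrays had 0.64 and 0.65 and the MFAP5 arrays -0.038 to -0.0065. All 10 measured adipocyte markers were lower with MFAP5, 8 of them past the threshold (limma, adjusted p under 0.05), with list medians of 1.05 to 1.35 in control arrays and -2.88 to -0.96 in MFAP5 arrays. The mean of 16 of 18 endothelial markers was lower with MFAP5, and the median difference was -0.24. Limma called none of the 18, and 7 had an unadjusted p under 0.05. Of all 18193 genes, 11935 had a lower mean with MFAP5. Limma called 2.79% of all genes lower, and 19.7% had an unadjusted p under 0.05. Whether endothelial transcripts dominated the samples could not be read from centred values. The number of arrays limits the precision. In such bulk RNA, fewer cells of a type and less RNA per cell cannot be told apart.

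With MFAP5, Plat was 2.12-fold higher and was the 1 member gene of 8 that passed the threshold; none was called lower. Over all genes 0.759% were called higher and 2.79% lower, and 3.55% in either direction. Among the other 7 genes the differences ran from -0.43 for Plau to 1.42 for Serpinb2, and 3 of the 8 genes, Plat, Plau and Serpinb2, had an unadjusted p under 0.05, as did 19.7% of all genes. The unmoderated statistic called none of the 8 and 1 of all 18193 genes, so that its count of 0 carries no reading on the members; 1 member and 15.5% of all genes had an unadjusted p under 0.05 with it. The member differences were positive in 5 genes and negative in 3, with a median of 0.14, where the median over all genes was -0.08. The 2 activators had differences of opposite sign, and so did F3 and the 2 protein C receptors, though of these 5 genes only Plat passed the threshold.

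**Figure D1:**
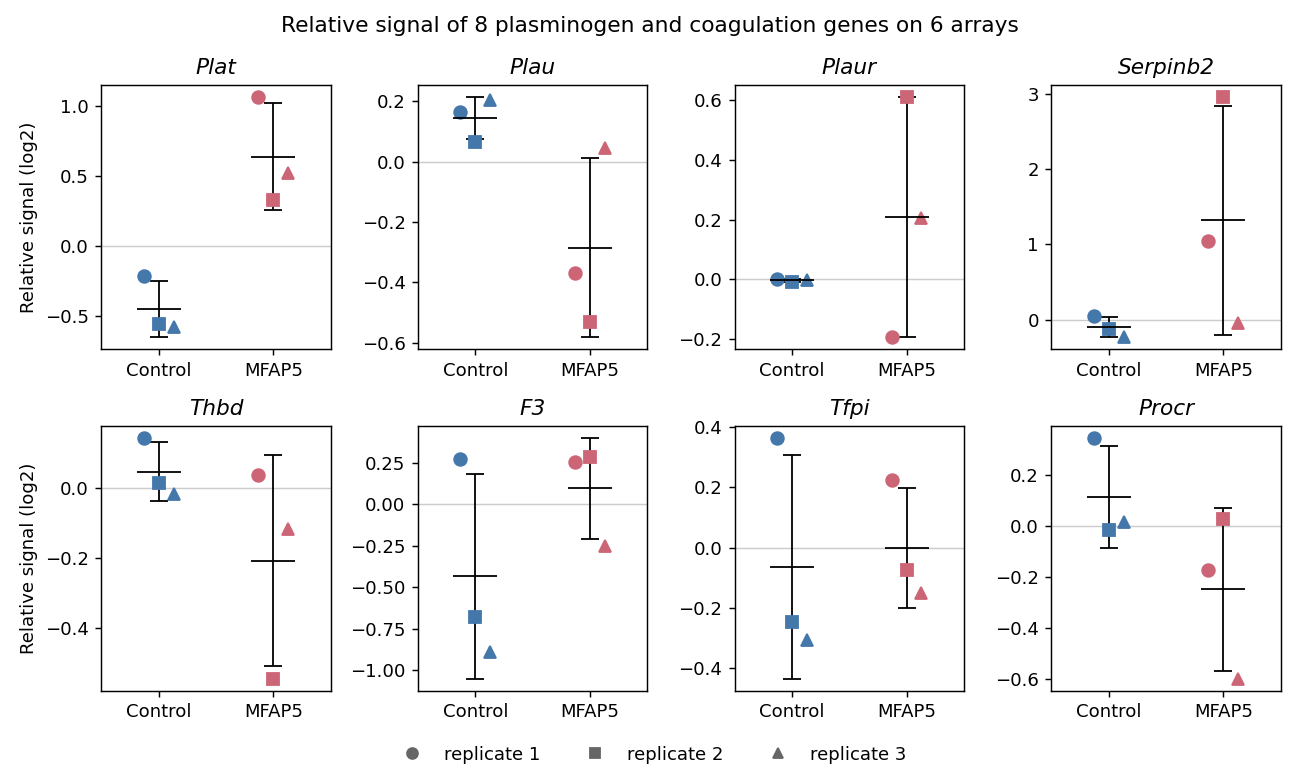
Relative log2 signal of the 8 member genes on the 3 Control and 3 MFAP5 arrays, with each point 1 array (shape gives the replicate number), the horizontal bar the group mean and the whiskers 1 SD. The Plat groups were separate, at -0.57 to -0.22 against 0.33 to 1.07, while control replicate 1 lay well above the other controls for F3 and Tfpi.

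Tissue-type plasminogen activator was the member with the clearest separation. Plat stood at -0.22, -0.56 and -0.57 in control replicates 1, 2 and 3 and at 1.07, 0.33 and 0.52 in MFAP5 replicates 1, 2 and 3. Every MFAP5 array lay above every control array, with MFAP5 replicate 1 the highest. Groups were separate in that direction in 6.51% of all genes. The group means were -0.45 ± 0.20 and 0.64 ± 0.38 (SD, n = 3), and the log2 difference was 1.09 ± 0.19 (SE; limma adjusted p = 0.0203). A larger absolute difference was found in 1.43% of genes. The call was lost without control replicate 2 (adjusted p = 0.107), without control replicate 3 (adjusted p = 0.111), with the spike-in signal as covariate (adjusted p = 0.0881) and with the unmoderated statistic (adjusted p = 0.212). Fewer genes were called higher at all in these 4 fits, 0.0879%, 0.077%, 0.264% and 0% of those tested. The difference stayed between 0.87 and 1.24 whichever array was left out. A sign of RNA quality, the signal of the 3' probe set of the actin control minus that of its 5' probe set, also separated the groups. This relative log2 value was -0.0048, -0.053 and -0.032 in control arrays and 0.14, 0.082 and 0.036 with MFAP5, highest in MFAP5 replicate 1 as Plat was. The same value for the Gapdh control overlapped, at -0.16 to 0.033 against -0.038 to 0.086. The part of RNA quality in the Plat and other member differences was not tested.

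The 2 probe sets of Plat had differences of unequal size. Probe set 1458553_at, which the platform annotation ties to a GenBank record other than a RefSeq transcript, had signals of -0.81, -0.40 and -0.48 in control arrays and 1.62, 0.40 and 1.30 with MFAP5. Its groups did not overlap, and its difference of 1.67 ± 0.29 (SE over n = 3 arrays a group; limma adjusted p = 0.0198) was the 1 call among the 13 member probe sets. Over all probe sets 1.56% were called higher and 1.72% lower. Probe set 1415806_at, tied to the RefSeq transcript of Plat, had 0.37, -0.71 and -0.67 in control arrays and 0.51, 0.26 and -0.26 with MFAP5. On this probe set control replicate 1 lay among the MFAP5 arrays. The gene value of -0.22 in that array is the mean of 0.37 and -0.81. Averaging the 2 probe sets gave Plat an SE of 0.19, smaller than that of either probe set. Its difference was 0.51 ± 0.31 (SE; limma adjusted p = 0.411), and 0.86 without control replicate 1 (adjusted p = 0.0441), a fit in which 6.26% of all probe sets were called higher. The difference on the first probe set exceeded that on the second by 1.16. An exact permutation test of 3 against 3 arrays cannot go below p = 0.1 (two-sided) and gave 0.3, so it does not settle whether the 2 probe sets disagree. The call of 1458553_at was made in 7 of the 13 alternatives run by probe set. It was lost with the spike-in covariate (adjusted p = 0.0537), with the unmoderated statistic (adjusted p = 0.246), and without control replicate 2, control replicate 3, MFAP5 replicate 1 or MFAP5 replicate 3 (adjusted p between 0.0523 and 0.0937). Where either probe set lies in the transcript was not examined here.

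Over the 6 arrays, the genes with the pattern most like that of Plat were Ttc3, Nav1 and Col1a2 (a chain of type I collagen), each with a Pearson correlation of 0.99. In all, 43 genes had a correlation of at least 0.95 with Plat. The arrays share their group structure, so such values describe a pattern and are not tested. The differences of Ttc3, Nav1 and Col1a2 were 0.26, 0.32 and 0.36, and none of them passed the threshold (adjusted p between 0.101 and 0.204). The fibroblast marker list, of which Col1a2 is a member, had array medians of 0.0073, -0.22 and -0.19 in control arrays and 0.15, 0.082 and -0.0073 with MFAP5. Of its 10 genes 8 had a higher mean with MFAP5, none was called higher and 1, Pi16, was called lower. Among all 18193 genes 6258 had a higher mean, 0.759% were called higher and 2.79% lower. The part of fibroblasts in the Plat difference was not tested.

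**Figure D2:**
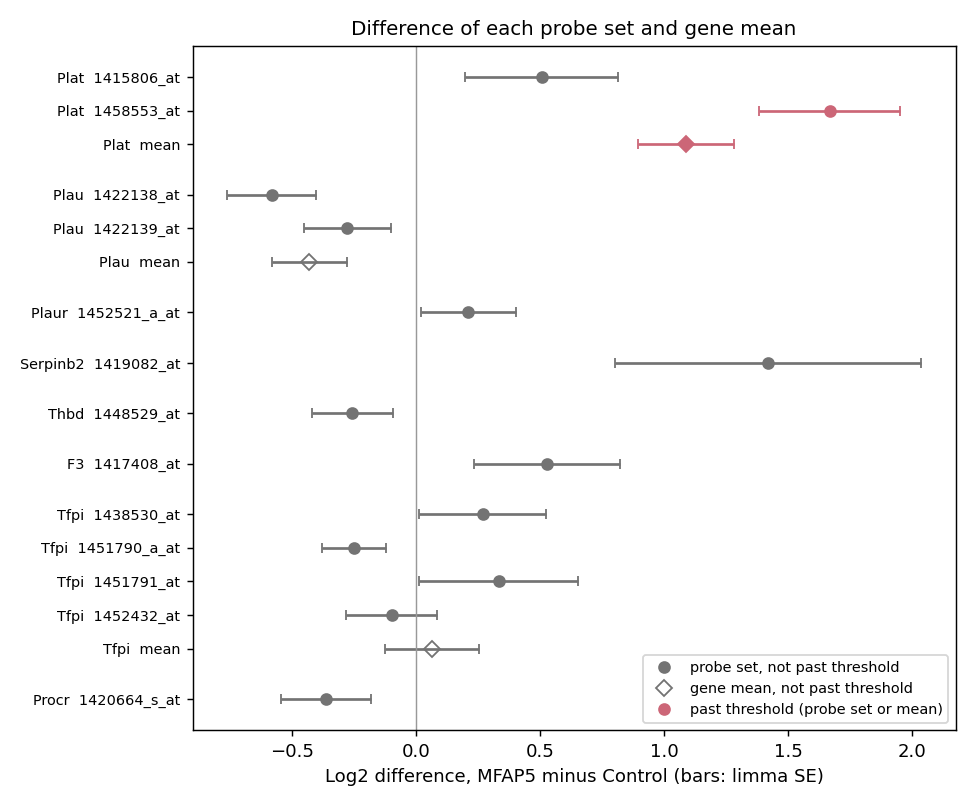
Log2 difference, MFAP5 minus Control, of each of the 13 member probe sets (circles) and of the gene means of Plat, Plau and Tfpi (diamonds), with the limma SE as bars and calls in red. The 2 Plat probe sets lie at 0.51 and 1.67, and those of Tfpi lie on both sides of 0.

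Urokinase had a lower mean with MFAP5 that missed the threshold. Plau stood at 0.16, 0.067 and 0.20 in control arrays and at -0.37, -0.53 and 0.045 in the MFAP5 arrays. The groups were separate, by a margin that rested on MFAP5 replicate 3, and so they were in the lower direction in 17.8% of all genes. The log2 difference was -0.43 ± 0.15 (SE over n = 3 arrays a group; limma adjusted p = 0.171). Without MFAP5 replicate 3 it was -0.59 and was called (adjusted p = 0.0450), as were 2.34% of all genes in that direction. It was also called with array weights (adjusted p = 0.0353), where 15.8% of all genes were called lower. Both probe sets had a negative difference, -0.58 for 1422138_at and -0.28 for 1422139_at, and neither passed (adjusted p = 0.132 and 0.428). The gap between these differences was 0.31. The same exact permutation test gave p = 0.3 (two-sided, both such tests adjusted to 0.3), which settles nothing here either. On 1422138_at MFAP5 replicates 1 and 2 had the same value, -0.598898, and MFAP5 replicate 3 had -0.016. Without MFAP5 replicate 3 this probe set was called lower (limma adjusted p = 0.0429), as were 1.23% of all probe sets. In that fit the MFAP5 arrays had no spread on it, and it enters the Plau mean called there. The cause of the equal values was not tested.

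The urokinase receptor was nearly constant among the controls and varied with MFAP5. Plaur, measured by 1 probe set, had 0.00092, -0.0098 and -0.00092 in control arrays and -0.19, 0.61 and 0.20 with MFAP5. MFAP5 replicate 1 lay below and replicates 2 and 3 above all controls. The difference was 0.21 ± 0.18 (SE over n = 3 arrays a group; limma adjusted p = 0.546) and came to 0.0090 without MFAP5 replicate 2. Because each probe set was centred on the median of the 6 arrays, closeness of the controls to 0 is in part set by the centring.

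Serpinb2, the plasminogen activator inhibitor type that macrophages and stressed cells make, had the largest difference of the 8 genes and the widest spread. Its signals were 0.046, -0.12 and -0.22 in control arrays and 1.04, 2.96 and -0.046 in MFAP5 replicates 1, 2 and 3. MFAP5 replicates 1 and 2 lay above all controls and replicate 3 lay among them. The MFAP5 mean was 1.32 ± 1.52 against -0.10 ± 0.14 in the controls (SD, n = 3), and the difference of 1.42 ± 0.61 missed the threshold (SE; limma adjusted p = 0.248). A larger absolute difference was found in 0.797% of genes. Without MFAP5 replicate 2 it was 0.60 and without MFAP5 replicate 3 it was 2.10 (adjusted p = 0.344 and 0.0586). MFAP5 replicate 2 was also the array with the highest Plaur and the lowest Plau signal. The macrophage marker list had array medians of 0.032, -0.037 and -0.032 in control arrays and -0.044, 0.027 and 0.097 with MFAP5, an order that differed from that of Serpinb2. Of its 15 genes 8 had a higher mean with MFAP5, none was called higher and 1, Marco, was called lower. Among all 18193 genes 6258 had a higher mean, 0.759% were called higher and 2.79% lower. The part of macrophages in these differences was not tested.

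Tissue factor, the trigger of coagulation, had a higher mean with MFAP5, and its controls were split. F3 stood at 0.27, -0.68 and -0.89 in control replicates 1, 2 and 3 and at 0.26, 0.28 and -0.26 with MFAP5. Control replicate 1 lay at the level of MFAP5 replicates 1 and 2, and the other 2 controls lay below all MFAP5 arrays. The difference was 0.53 ± 0.29 (SE over n = 3 arrays a group; limma adjusted p = 0.346). Without control replicate 1 it was 0.88 and was called (adjusted p = 0.0271), as it was with array weights, which gave that array a weight of 0.308 (difference 0.88, adjusted p = 0.0203). The largest weight, 3.29, went to control replicate 3, the array with the lowest F3 signal. Over all genes 4.18% were called higher without control replicate 1 and 6.18% with array weights. With the spike-in signal as covariate the F3 difference was 0.15 (adjusted p = 0.759). The difference ran from 0.30 to 0.88 over the arrays left out, the lowest without control replicate 3 (limma adjusted p = 0.727). The spike-in signal and the fibroblast list median also set control replicate 1 apart from controls 2 and 3, and their part in the F3 values was not tested.

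Tfpi, the inhibitor of the complex of tissue factor and factor VII, showed the same split of the controls and no shared direction among its probe sets. The gene mean was 0.36, -0.25 and -0.31 in control arrays and 0.22, -0.075 and -0.15 with MFAP5. The MFAP5 arrays lay between control replicate 1 and the other controls, and the difference was 0.063 ± 0.19 (SE over n = 3 arrays a group; limma adjusted p = 0.876). Its sign changed without control replicate 2 (-0.028), control replicate 3 (-0.059) or MFAP5 replicate 1 (-0.049) and with the spike-in covariate (-0.17). Of its 4 probe sets, 1438530_at and 1451791_at had differences of 0.27 and 0.33, and 1451790_a_at and 1452432_at of -0.25 and -0.10 (adjusted p between 0.340 and 0.808). On 1451791_at control replicate 1 stood at 0.60 and the other controls at -0.63 and -0.72. Without control replicate 1 the difference of this probe set, 0.76, was called (limma adjusted p = 0.0193). In that fit 6.26% of all probe sets were called higher. On 1451790_a_at the groups were separate in the other direction, at 0.0019 to 0.11 in control arrays and -0.38 to -0.0019 with MFAP5. Member probe sets with separate groups numbered 1 higher and 2 lower, where 9% and 14.2% of all probe sets were so.

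The 2 receptors of the protein C pathway both had lower means with MFAP5, and neither passed the threshold. Thbd, which encodes thrombomodulin, stood at 0.14, 0.015 and -0.015 in control arrays and at 0.038, -0.55 and -0.12 with MFAP5. MFAP5 replicate 1 lay among the controls. The Thbd difference was -0.26 ± 0.15 (SE over n = 3 arrays a group; limma adjusted p = 0.390) and was -0.087 without MFAP5 replicate 2. Procr, whose protein presents protein C to the thrombin and thrombomodulin complex, had 0.34, -0.017 and 0.017 in control arrays and -0.17, 0.027 and -0.60 with MFAP5. MFAP5 replicate 2 lay above 2 of the controls. The Procr difference was -0.36 ± 0.17 (SE; limma adjusted p = 0.293), and -0.19 without MFAP5 replicate 3. Its single probe set, 1420664_s_at, carries the suffix that Affymetrix gives to sets able to bind more than 1 transcript, so other transcripts may add to it. The endothelial marker list had array medians of -0.051, 0.24 and 0.17 in control arrays and -0.083, -0.16 and -0.027 with MFAP5, lower in every MFAP5 array than in control replicates 2 and 3. The part of endothelial content in the Thbd and Procr values was not tested.

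**Figure D3:**
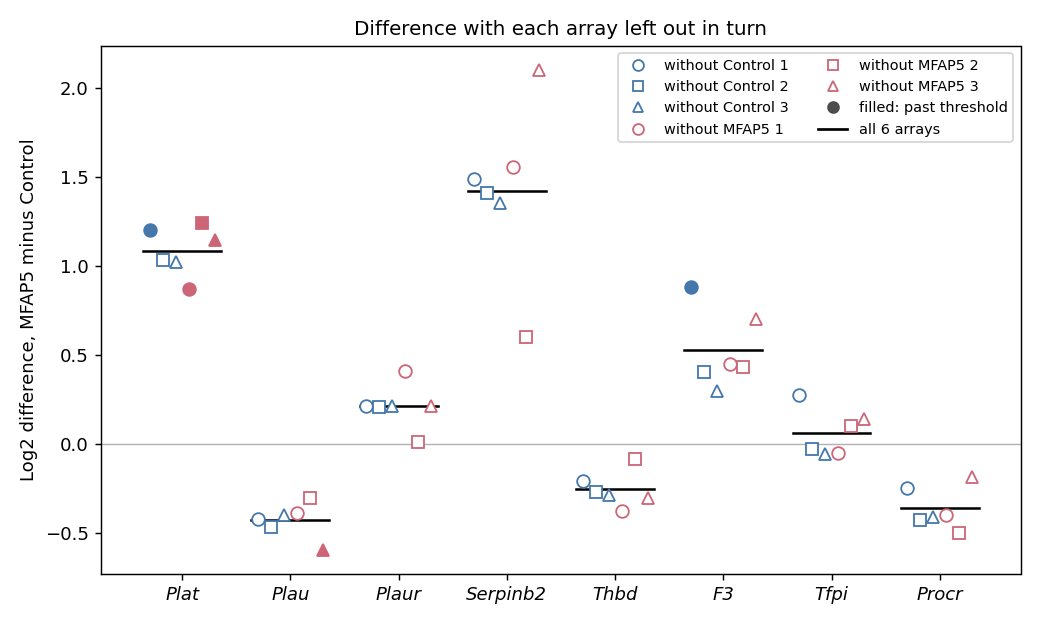
Log2 difference, MFAP5 minus Control, of the 8 member genes with each of the 6 arrays left out in turn (points; blue, a control left out; red, an MFAP5 array left out; filled, past the threshold) and with all arrays (black lines). Plat stays between 0.87 and 1.24 and F3 is called only without control replicate 1, while Serpinb2 ranges from 0.60 to 2.10.

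Promoter windows from RefSeq (build GRCm38.p6), 250 bases before to 50 bases after a transcript start, were held for 5 of the 8 measured members: Plaur, Serpinb2, F3, Tfpi and Procr. They were searched on both strands for 4 forms, which do not overlap one another in these windows except where GC boxes run together. The AP-1 form, TGA and TCA parted by any 1 base, bound by Fos and Jun proteins, was found in windows of 4 of the 5 members, all but Tfpi, and in 7.81% of all 32851 windows. That share counts windows, and a gene can have more than 1. The 250 bases before the start are shown for these 4 members because they share this form. Their mean signals were higher with MFAP5 in 3 and lower in 1 (Procr). None of these differences passed the threshold (limma adjusted p between 0.248 and 0.546), and the groups of all 4 overlapped. Capitals mark the AP-1 form, and for Serpinb2 the first of 2 overlapping windows, which hold the same match, is printed.
Plaur, chr7:24462233-24462482, + strand: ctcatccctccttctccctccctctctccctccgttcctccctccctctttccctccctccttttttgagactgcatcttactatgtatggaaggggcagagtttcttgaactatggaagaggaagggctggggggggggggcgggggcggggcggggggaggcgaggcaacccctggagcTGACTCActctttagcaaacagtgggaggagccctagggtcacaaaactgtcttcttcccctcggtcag
Serpinb2, chr1:107511173-107511422, + strand: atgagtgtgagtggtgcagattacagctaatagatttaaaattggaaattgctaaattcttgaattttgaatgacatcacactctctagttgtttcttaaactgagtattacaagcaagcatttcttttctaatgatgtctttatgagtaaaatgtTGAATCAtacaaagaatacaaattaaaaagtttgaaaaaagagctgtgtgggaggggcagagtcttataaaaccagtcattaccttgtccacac
F3, chr3:121723287-121723536, + strand: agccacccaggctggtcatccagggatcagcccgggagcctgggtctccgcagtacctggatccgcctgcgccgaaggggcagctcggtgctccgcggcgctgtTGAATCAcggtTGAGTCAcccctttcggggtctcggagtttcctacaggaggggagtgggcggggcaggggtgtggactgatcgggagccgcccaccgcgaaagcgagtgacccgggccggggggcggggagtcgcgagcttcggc
Procr, chr2:155750967-155751216, + strand: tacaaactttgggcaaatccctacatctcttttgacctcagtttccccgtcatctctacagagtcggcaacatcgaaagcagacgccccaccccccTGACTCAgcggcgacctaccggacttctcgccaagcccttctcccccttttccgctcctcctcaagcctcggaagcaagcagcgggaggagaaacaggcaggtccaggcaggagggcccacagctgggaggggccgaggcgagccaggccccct
In the F3 window the form occurred at 2 places, at -146 to -140 and -135 to -129 from the start base, counted as 0. It lay at -69 to -63 in Plaur, at -94 to -88 in Serpinb2 and at -154 to -148 in Procr. Of the other forms, the GC box (GGGCGG, in 35.7% of all windows) was found in Plaur, F3 and both Tfpi windows. A loose form of the NF-kappa B element, GGNNNTTCC (18.5%), was found in Plaur at 17 to 25, after the start, and in F3 at -112 to -104. The TATA box, spelled TATAAA (13.6%), was found in Serpinb2, F3 and 1 Tfpi window. In the printed Serpinb2 window it lay at -29 to -24. The matches in F3, at 43 to 48 (after the start and beyond the printed bases), and in Tfpi, at -127 to -122, were on the opposite strand. A match describes letters in a window and shows neither binding nor an effect, and a Plat window was not used here.

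Beyond the members, limma called none of 47 other genes of the plasminogen system and of coagulation. It called 3.55% of all genes in either direction. Of the 47 genes, 6 had an unadjusted p under 0.05, as did 19.7% of all genes. With the unmoderated statistic, which called 1 of all genes, none of the 47 was called and 2 had an unadjusted p under 0.05, against 15.5% of all genes. Their median difference was -0.050, with 17 positive and 30 negative values. For comparison, the median over all genes was -0.08, and 11935 of all 18193 genes had a negative difference. The 19 genes of the plasminogen system had a median of -0.076 and the 28 of coagulation a median of -0.037. Anxa2, part of the annexin complex that gathers plasminogen and its tissue-type activator at the endothelial surface, differed by 0.011 ± 0.11, Vwf, the platelet-binding protein of endothelial granules, by 0.015 ± 0.23, and F2r, the main thrombin receptor, by -0.031 ± 0.17 (SE over n = 3 arrays a group; limma adjusted p between 0.937 and 0.980). The sign of each of these 3 changed in 5 of the 16 alternatives.

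The groups were separate in 8 of the 47 genes, 4 higher and 4 lower, where 6.51% and 17.8% of all genes were so; these 8 were chosen after their values were seen. The 4 higher were A2m, Lrp1, Igf2r and F5. A2m, which encodes alpha-2-macroglobulin, a protease inhibitor that also traps plasmin, stood at -0.53, -0.15 and -0.35 in control arrays and at 1.47, 0.15 and 0.66 with MFAP5. MFAP5 replicate 1 was the highest of the 6, as it was for Plat. The A2m difference was 1.10 ± 0.29 (SE over n = 3 arrays a group; limma adjusted p = 0.0808), and 1.41 without MFAP5 replicate 2, where it was called (adjusted p = 0.0201), as were 0.671% of all genes in that direction. Lrp1, a receptor that clears activator and inhibitor complexes, had a difference of 0.43, Igf2r, which binds the urokinase receptor, of 0.36, and F5, coagulation factor V, of 0.63 (adjusted p = 0.122, 0.118 and 0.222). The F5 groups were separate by a small margin, with -0.035 in MFAP5 replicate 3 and -0.039 in control replicate 1. The 4 lower were Plg, Serpina10, F8 and Mcfd2 (limma adjusted p between 0.205 and 0.571). Plg, plasminogen itself, differed by -0.40 and Serpina10, an inhibitor of factor X, by -0.45. F8, coagulation factor VIII, differed by -0.30 and Mcfd2, which helps to export factors V and VIII, by -0.10. Plg and Mcfd2 were also separate by small margins. Plg stood at 0.0023 in control replicate 1 and -0.0023 in MFAP5 replicate 2. Mcfd2 stood at 0.0083 in control replicate 3 and -0.0083 in MFAP5 replicate 1. Without control replicate 1, limma called Plg (-0.56, adjusted p = 0.0329) and F9, which encodes factor IX (-0.42, adjusted p = 0.0347), both lower; 10.5% of all genes were called lower in that fit, a larger share than 2 of 47.

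**Figure D4:**
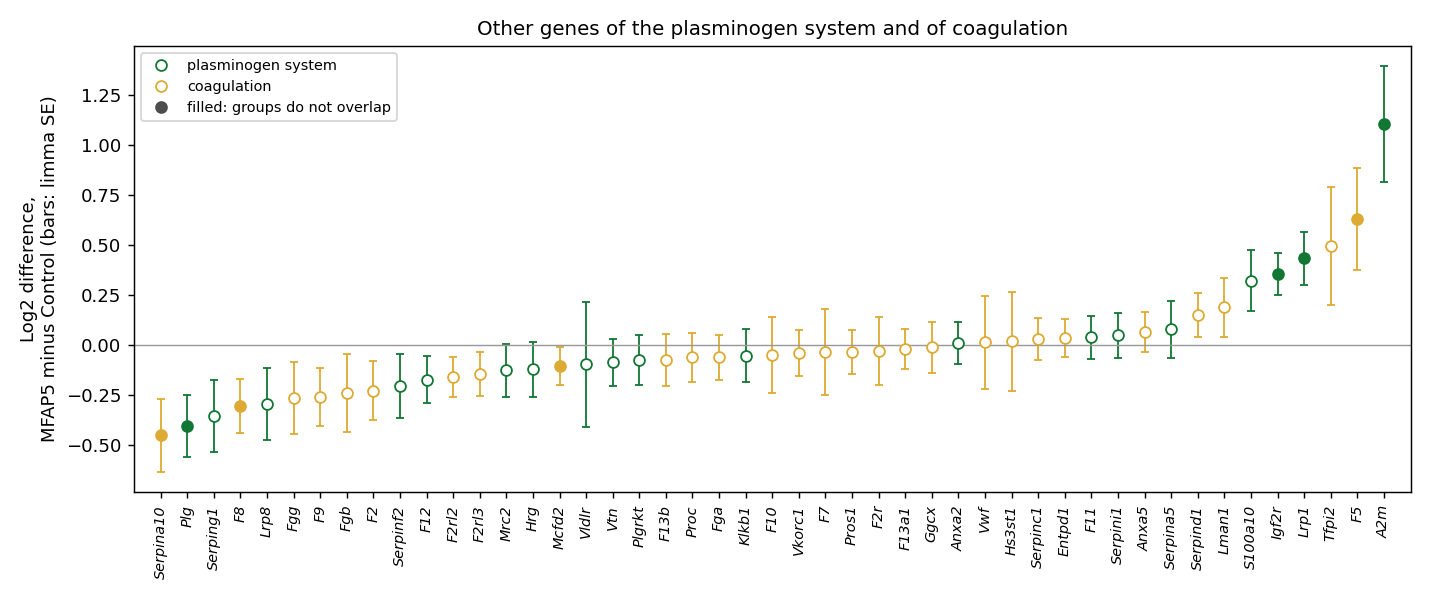
Log2 difference, MFAP5 minus Control, of the 47 other genes of the plasminogen system (green) and of coagulation (yellow), ordered by difference, with the limma SE as bars and filled points where the 2 groups do not overlap. A2m lies highest at 1.10 and Serpina10 lowest at -0.45, and no gene passed the threshold.

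The remaining marker lists were read beside the members. Among all genes 2.79% were called lower, 0.759% were called higher and 19.7% had an unadjusted p under 0.05. Of 13 neutrophil markers 5 were called lower and none higher, with array medians of 0.18 to 0.45 in control arrays and -0.41 to -0.26 with MFAP5. The 2 called with the smallest p were S100a8 (-1.63) and Clec4e (-1.43). Limma called none of 9 platelet markers (median -0.14; none had an unadjusted p under 0.05) and none of 10 mesothelial markers (median -0.090; 1 had an unadjusted p under 0.05). Of 10 markers of mural cells, the pericytes and smooth muscle cells of vessels, Kcnj8 was called lower (-0.90), and the median was -0.12. Among adipocyte markers Slc2a4 and Lep had the smallest p, at -2.60 and -3.02. These lists moved between the same 2 groups of arrays as the members, and their part in the member differences was not tested.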

How the data were processed

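Biotin-labelled cRNA made from total RNA was read on 1-colour arrays, per the labels' protocols. The submitters' processing notes name MAS5; the sources used here give neither its scaling target nor later steps. The deposited values were taken as log2 signals, since row medians were 0 (to within 5e-07) and the widest row spanned 8.24 units. Were they natural logs, the printed differences and folds would be underestimates. No dim-probe filter or detection call could be applied to centred values.

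After 64 control probe sets were left out, 45037 were tested. In the platform annotation 34945 had 1 symbol, 932 several, and 9160 were not listed. Gene values were means over probe sets with 1 symbol. The test was limma 3.58.1 in R 4.3.3 (lmFit, then eBayes with no trend, two-sided, Benjamini-Hochberg over all genes or all probe sets, threshold 0.05). In a check on simulated independent normal values, median estimates lay close to the planted differences. That simulation held no array that stood apart, and it sets no error rate for the calls made here. Differences are MFAP5 minus control. Alternatives were other array scalings, variance models, array weights, a spike-in covariate (14 probe sets), a replicate block, left-out arrays and other gene summaries. Named were all members, the called pathway genes (none) with Anxa2, Vwf and F2r, the 3 genes most like a called member, and up to 2 called markers of a list. The members and lists were chosen with earlier results of these data known.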

Additional observations from a re-analysis of the deposited data

How the results depend on the processing

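The Plat call was made in 12 of 16 alternatives, and its difference was positive in all 16, from 0.87 to 1.67, the largest with the probe set of largest SD. It was 0.96 with the spike-in covariate and 1.09 with the unmoderated statistic, where it was not called; the cause was not tested. In both of these settings 0 member genes and 0 member probe sets were called higher. Over all genes 0.264% and 0% were called higher in these settings, and over all probe sets 0.786% and 0%. With array weights 2 member genes were called higher (Plat at 1.18, F3 at 0.88) and 1 lower (Plau at -0.48). Of the other pathway genes 3 were called higher (A2m, Igf2r and Tfpi2) and 3 lower (Plg, F9 and Fgg). Calls over all genes rose to 6.18% higher and 15.8% lower in that fit. Member probe sets called there numbered 2 higher and 1 lower, beside 6.76% and 8.49% of all probe sets. Over the left-out arrays 0 to 2 member genes were called higher and 0 to 1 lower, 0 to 4 and 0 to 1 member probe sets, and 0 to 1 and 0 to 2 other pathway genes. Over all genes the shares ran from 0.077% to 4.18% higher and 1.13% to 10.5% lower, both highest without control replicate 1, and over all probe sets from 0.2% to 6.26% and 0.557% to 7.48%. Left-out ranges were 0.87 to 1.24 for Plat, -0.59 to -0.31 for Plau, 0.30 to 0.88 for F3 and -0.059 to 0.28 for Tfpi.

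Sign changes were found for Tfpi, F2r, Vwf and Anxa2 and for the median of the members; no value with a changed sign was called. Tfpi was -0.17 with the spike-in covariate, and its probe sets 1438530_at and 1451791_at were -0.059 and -0.12 there. Probe set 1452432_at was 0.050 with array weights and -0.24 to 0.051 over left-out arrays. F2r was 0.0037 with median centring, 0.11 with array weights, 0.12 with the probe set of largest SD and -0.13 to 0.14 over left-out arrays. Vwf was -0.017 with array weights and -0.17 to 0.24 over left-out arrays. Anxa2 was -0.00046 with the spike-in covariate, -0.24 with the probe set of largest SD, -0.084 without probe sets ending in _x_at or _s_at, and -0.070 to 0.057 over left-out arrays. The median of the members was -0.0060 with the spike-in covariate and 0.055 to 0.27 in the other alternatives.

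The labels do not say that a replicate number marks a shared animal or day, so the numbers were not taken as pairs. Same-numbered arrays deviated from their group means with correlations of 0.21, 0.055 and 0.085. Differently numbered arrays did so with correlations of -0.15 to 0.084. These values do not settle whether the arrays were paired. With the replicate block 1 member gene and 1 member probe set were called higher and none lower. Over all genes 0.841% were called higher and 3.24% lower in that fit, and over all probe sets 2.21% and 2.08%. Plat was 1.09 there (limma adjusted p = 0.00441), and no call of a member changed. A filter on dim probe sets was not run, since centred values carry no level. Signal over background was therefore not known for any member.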
